A study of Mus musculus with 2 samples.

Results

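Lrrc36, Elmod1, Strn, Gm12253, 2610035D17Rik, 4930528G23Rik and 5033418A18Rik are 7 genes that were far dimmer in Drp1LiKO hepatocytes, in which the Drp1 gene is targeted, than in control hepatocytes, between 10.0-fold and 20.4-fold on the brightest probe of each gene. They were picked by name because their signals were so low in Drp1LiKO cells, so their differences are given as a description and without a test. Every array probe carrying 1 of these names was taken, which gave 10 of 56605 probes and 7 of 37074 gene names. All 7 genes were measured by at least 1 probe, and 8 of the 10 probes were well above background on at least 1 array. Of the 6 genes found in the RefSeq table of GRCm38.p6, Lrrc36, Elmod1, Strn and Gm12253 were protein coding and 2610035D17Rik and 4930528G23Rik were long noncoding RNAs. Gm12253 was therefore not a noncoding transcript, and 5033418A18Rik had no entry in that table.

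RNA came from primary hepatocytes, 1 array per genotype, harvested 24 h after seeding on collagen I without further treatment named in the labels. Drp1LiKO cells were from Alb-Cre Tg/+ Drp1flox/flox mice, in which the albumin promoter, active in hepatocytes, drives Cre. Control cells were from Drp1flox/flox littermates per the study's methods, while the array's label calls them wild type, and the labels give the strain of both as C57BL/6. The methods give an age and sex for purchased mice and not for these genotypes, and how many mice each array stands for is not given in the sources used here. Cells were obtained by collagenase perfusion and low-speed pelleting, which enriches hepatocytes without sorting them. With 1 array per genotype no test was possible, and an error given below covers the measurement of a spot, not the spread between animals or cultures.

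Drp1, encoded by Dnm1l, is the dynamin-related GTPase that constricts and divides mitochondria. Striatin, the product of Strn, is a scaffold that ties the phosphatase PP2A to germinal center kinases in the STRIPAK complex. Elmod1 encodes an ELMO domain protein that accelerates GTP hydrolysis by small GTPases of the ARF family, and Lrrc36 encodes a protein with leucine-rich repeats. Long noncoding RNAs such as 2610035D17Rik are transcribed without yielding a protein, and many of them are present at low levels in a restricted set of tissues.

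The probes are shown because each value below rests on 1 spot of 1 such sequence. They are written in the sense of the transcript, 5′ to 3′, with their mm9 position as the array files give it. The 3 transcripts not listed as coding are given as the whole 60-base probe, and the 4 coding genes by the first 30 bases of their brightest probe.
2610035D17Rik, chr11:112905336-112905395, minus strand: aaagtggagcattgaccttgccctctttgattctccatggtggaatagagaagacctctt
4930528G23Rik, chr6:148609184-148609243, minus strand: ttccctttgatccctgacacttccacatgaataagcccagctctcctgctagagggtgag
5033418A18Rik, chrX:45794903-45794962, minus strand: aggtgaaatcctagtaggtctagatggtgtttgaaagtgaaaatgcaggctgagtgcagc
Lrrc36, chr8:107987920-107987979, plus strand: gctgtccctgtggtgggtactggtgtttac
Elmod1, chr9:53759617-53759676, minus strand: cttgcttaggggattgagtgctgactggtt
Strn, chr17:79053936-79053995, minus strand: ggcatttatagtgctagcgtcatcatttca
Gm12253, chr11:58254964-58255023, plus strand: ctgggaagagagaacctcaacagagaaaaa
A run of 15 bases was shared with no other probe on the array for Lrrc36, Strn, 4930528G23Rik and 5033418A18Rik, with 1 other probe for 2610035D17Rik (of Tmem106b) and for Gm12253, and with 2 for Elmod1. The probes had no common base composition. Their GC content ran from 35.0% in Strn to 51.7% in 4930528G23Rik. Of all probes, 2.7% lay below the GC content of the Strn probe, and 88.7% at or below that of the 4930528G23Rik probe.

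Signals are background-corrected spot intensities (processed signals) with the error that the scanner software assigns to them. For the comparison between arrays each log2 signal was set relative to the 75th percentile of its array, which was 313 in control and 356 in Drp1LiKO cells. The log2 ratio is Drp1LiKO minus control after that scaling, and its SE carries the errors of both spots. A Z score of -2, the threshold by which the study selected genes, corresponded to a log2 ratio of -1.31, or 2.48-fold lower. The deleted gene was checked first. The brightest Dnm1l probe read 2602 in control and 1217 in Drp1LiKO cells, a log2 ratio of -1.28 (Z score -1.95, 2.43-fold lower), and the other probe read 22.8 and 20.9. The targeted gene was thus lower but short of the threshold, and transcript was still detected in Drp1LiKO cells.

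Among the named coding genes, Lrrc36 had the lowest ratio. Its probe near base 2344 of the transcript NM_001170788 gave 387 ± 38.0 in control and 21.9 ± 4.06 in Drp1LiKO cells. The log2 ratio was -4.33 (SE 0.303, Z score -6.62), or 20.1-fold lower. A second Lrrc36 probe, near base 243 of the same transcript, gave 17.1 in control and 3.42 in Drp1LiKO cells. It was not well above background on either array. The control signal of 387 and the low ratio of Lrrc36 thus rest on 1 probe.

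Elmod1 was the brightest of the 7 genes on the control array and the only one with a second probe that was detected. The probe near base 2195 of NM_177769 gave 734 ± 73.6 in control and 64.7 ± 7.30 in Drp1LiKO cells, a log2 ratio of -3.69 (SE 0.218, Z score -5.64), or 12.9-fold lower. The other probe lies near base 1030, and its 60 bases span 1656 bases of the genome at chr9:53767480-53769135, so that it crosses an intron. It gave 52.0 ± 6.67 in control and 4.83 ± 3.44 in Drp1LiKO cells, where it was not well above background. Against the lowest signal well above background on that array, 14.98, it was at least 3.94-fold lower. Both Elmod1 probes were thus lower in Drp1LiKO cells.

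Strn had the highest ratio of the 7 genes, although still far below the threshold. Its only probe, near base 3250 of NM_011500, gave 312 ± 31.5 in control and 35.4 ± 5.09 in Drp1LiKO cells, a log2 ratio of -3.32 (SE 0.254, Z score -5.08), or 10.0-fold lower. Gm12253, a coding gene known only by its model number, gave 244 ± 24.7 and 26.9 ± 4.22 on the probe near base 1195 of NM_001045542, a log2 ratio of -3.37 (SE 0.270, Z score -5.15), or 10.3-fold lower. Its other probe, near base 948 of XM_006533898 at chr11:58253501-58253560, read 4.16 and 3.46 and was not well above background on either array. Strn and Gm12253 therefore each rest on 1 probe as well.

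The 3 other transcripts had 1 probe each. The long noncoding RNA 2610035D17Rik (NR_015556, near base 1672) gave 312 ± 31.5 in control and 17.4 ± 3.68 in Drp1LiKO cells. Its log2 ratio of -4.35 (SE 0.338, Z score -6.66), or 20.4-fold lower, was the lowest of the 7. The second long noncoding RNA, 4930528G23Rik (NR_131024, near base 979), gave 321 ± 32.8 and 30.8 ± 4.72, a log2 ratio of -3.56 (SE 0.266, Z score -5.45), or 11.8-fold lower. 5033418A18Rik (AK017178, near base 1325), which the array names from a cDNA clone, gave 286 ± 28.9 and 20.8 ± 3.77, a log2 ratio of -3.96 (SE 0.299, Z score -6.06), or 15.6-fold lower. In all 3, the control signal was close to the median of the 7 genes, 312, and the Drp1LiKO signal stood not far above 14.98, the lowest signal well above background on that array.

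**Figure D1:**
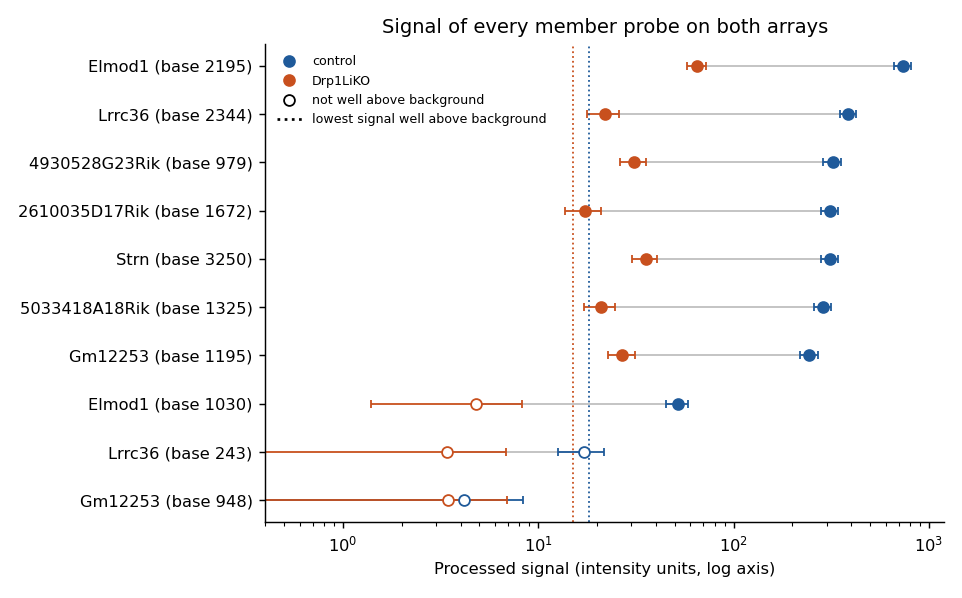
Processed signal of the 10 probes of the 7 genes (x axis, intensity units on a log axis; y axis, gene and position of the probe in its transcript) on the control array (blue) and the Drp1LiKO array (orange). Bars are the scanner software's error of a signal and run off the axis where they reach 0. Open circles were not well above background. Dotted lines mark the lowest signal well above background (18.2 on the control array, 14.98 on the other). A signal brighter than its line is not always well above background. The 7 brightest probes lie between 244 and 734 in control and between 17.4 and 64.7 in Drp1LiKO cells. The genes were chosen for their low Drp1LiKO signals.

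On the brightest probes all 7 genes passed the threshold, as 2.81% of all detected genes did in the same direction (566 of 20165). In the higher direction it was 3.5% (705). The share in the lower direction was 1.58% (280 of 17735) for genes, like these 7, that both arrays detected well above background. Since the genes were chosen by this contrast, nothing is read from their count. The median of their log2 ratios was -3.69, where that of all genes was -0.047. The SE of the ratios, 0.218 to 0.338, was a small part of each of them. Lrrc36 and 2610035D17Rik differed from each other by less than their SE, and so did Gm12253 and Strn. In bulk RNA, fewer cells of a kind and less RNA per cell cannot be told apart.

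The order given here leaves out genes that were not well above background on both arrays, whose ratios are bounds. Some of those genes lay below all 7. The lowest of the other RefSeq long noncoding RNAs had a log2 ratio of -5.094 or lower. The lowest of the other RefSeq coding genes had -4.438 or lower, against -4.35 for 2610035D17Rik. In the order of genes well above background on both arrays, 5 of the 7 took the lowest places. 2610035D17Rik was first, followed by Lrrc36, 5033418A18Rik, Elmod1 and 4930528G23Rik. Ccl20, a chemokine, came sixth with a log2 ratio of -3.52 (627 in control, 61.9 in Drp1LiKO cells). Aldh1a2, an enzyme of retinoic acid synthesis, came seventh with -3.37 (154 and 16.8). Gm12253 and Strn were eighth and ninth. The next genes, 2 transcripts known only as ENSMUST00000184915 and ENSMUST00000181784, had log2 ratios of -3.24 and -3.22, so that the lower end of the 7 was not set apart from the genes around it.

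**Figure D2:**
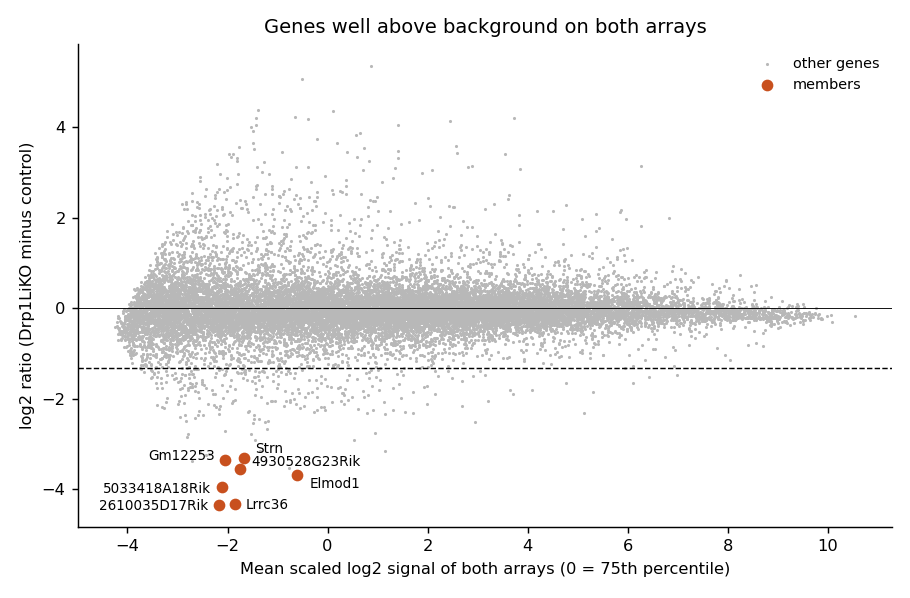
Log2 ratio (y axis, Drp1LiKO minus control) against the mean scaled log2 signal of both arrays (x axis, 0 is the 75th percentile) for the 17735 genes well above background on both arrays, with the 7 named genes in orange and the other genes in gray. The dashed line is the threshold at -1.31; the 7 genes lie between -4.35 and -3.32 at mean signals below the 75th percentile.

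The levels of the 7 genes were close to each other, as follows in part from how they were chosen. Their control signals, with a median of 312, stood between percentiles 73.0 and 81.2 of that array, and their Drp1LiKO signals, with a median of 26.9, between percentiles 48.4 and 61.2. In the plane of both scaled signals, the gene nearest to Strn was 4930528G23Rik at a log2 distance of 0.207, and the gene nearest to 2610035D17Rik was 5033418A18Rik at 0.291. Elmod1, which was brighter, had Ccl20 as its nearest gene at 0.236. These distances compare 2 arrays only. The raw intensity of a control spot was 5.56 to 14.0 times its local background and that of a Drp1LiKO spot 1.48 to 2.25 times, so the Drp1LiKO values carry the larger relative error.

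The spots themselves had an unusual feature on the control array. The scanner software gives the SD of the pixel intensities in each spot, and this was divided by the pixel mean and ranked among the 1001 spots closest in intensity on that array. In control cells the pixel spread was 54.6% of the mean for Lrrc36 (percentile 99.6), 56.2% for 4930528G23Rik (99.5), 40.1% for Strn (99.4) and 38.7% for Gm12253 (99.4). It was 44.2% for 2610035D17Rik (99.1) and 36.6% for 5033418A18Rik (99.0). The typical spread was 17.4% for spots as bright as that of 2610035D17Rik and 17.7% for those as bright as that of Strn, so these 6 control spots were far less even than others of their brightness. Elmod1 was closer to the typical spread, with 21.9% (95.5) on the brightest probe and 25.2% (88.9) on the other. On the Drp1LiKO array the same 7 spots had a spread of 20.6% to 24.8%, at percentiles 41.1 to 87.6.

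Outside the 7 genes, control spots at or above the 99th percentile were found for 117 of 17492 genes (0.669%), among them 8 of the 273 other genes past the threshold in the lower direction (2.93%) and 0 of the 438 past it in the higher direction. Of the 10 lowest of these 17492 genes, 1 had such a spot, and Ccl20 stood at percentile 25.5. None of the 7 control spots carried an outlier mark of the scanner software. With the median pixel in place of the mean, the log2 ratios were -4.43 for Lrrc36, -3.66 for Elmod1, -3.05 for Strn and -3.49 for Gm12253. They were -4.30 for 2610035D17Rik, -3.93 for 5033418A18Rik and -3.12 for 4930528G23Rik, all past the threshold. The part of the uneven control spots in the low ratios was not tested.

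**Figure D3:**
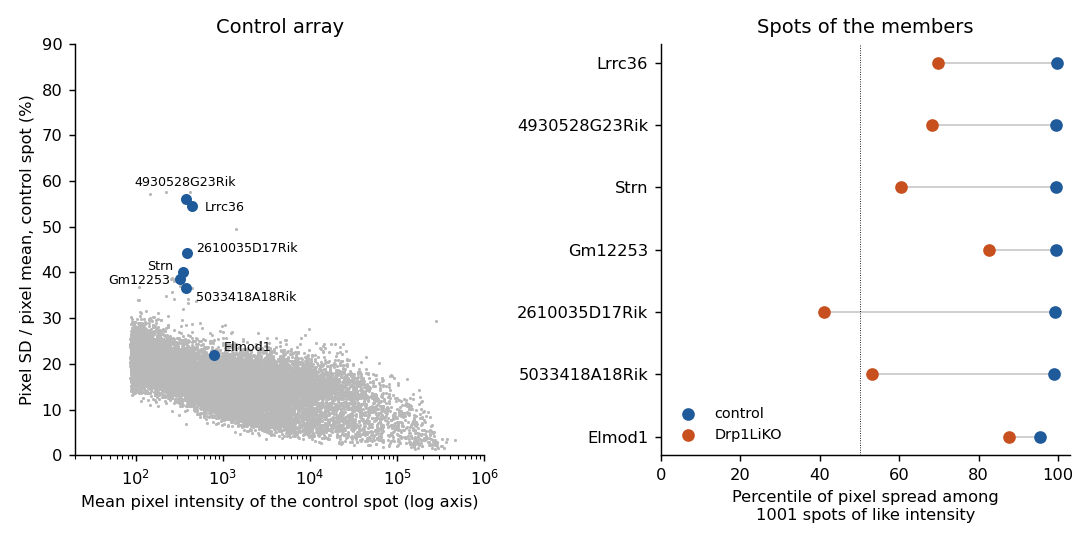
Left, pixel SD over pixel mean (y axis, %) of each control spot against its mean pixel intensity (x axis, log axis), for the brightest probe of each of 17499 genes (gray) and of the 7 named genes (blue). Right, percentile of that spread among the 1001 spots nearest in intensity for the 7 genes on the control (blue) and Drp1LiKO (orange) arrays, with a dotted line at the middle; 6 control spots are at percentile 99.0 or higher, and Elmod1 is at 95.5.

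Most spots printed close by on the array did not share the low ratios. Within 2 rows and 2 columns of each spot, 8 to 15 spots were detected on both arrays. The log2 ratios of these spots had a median of -0.12 around 2610035D17Rik, -0.10 around 5033418A18Rik, -0.09 around 4930528G23Rik and Strn, -0.07 around Gm12253 and -0.02 around Elmod1. Around Lrrc36 the median was -0.47 over 8 spots, with a lowest value of -1.03. Spots past the threshold were 2 of 15 around 2610035D17Rik (lowest -2.55), 1 of 9 around 4930528G23Rik (-1.46), 1 of 10 around Elmod1 (-1.43) and 0 around the others. Over all kept probes the share past it in this direction was 2.49%, and over genes detected on both arrays 1.58%.

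The detected genes near the 7 on the chromosomes did not share the low ratios either. Within 1 Mb on either side of the 7 genes lay 192 other detected genes, of which 0 passed the threshold in the lower direction and 5 in the higher. Over all detected genes the shares past it were 2.81% in the lower direction and 3.5% in the higher. The median log2 ratio of the 192 genes was -0.022 and their range -1.14 to 1.72, with 104 below 0. Near Lrrc36, the carboxylesterase genes Ces2b and Ces2c had log2 ratios of 1.36 and 1.51, while the closest gene, Tppp3, read 281 in control and 293 in Drp1LiKO cells at a distance of 3.41 kb. Plekhg4, on the other side of Lrrc36, had -0.59.

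The nearest detected genes were often far away, with 1 within 250 kb of Elmod1 and 2 within 250 kb of 4930528G23Rik. Elmod1 lay between Slc35f2 (log2 ratio 0.48, at 93.7 kb) and Dmxl2 (0.47, at 525 kb), neither of which passed the threshold. Strn lay between Fez2 (-0.40, at 277 kb) and Heatr5b (0.12, at 98.5 kb). The long noncoding RNA 4930528G23Rik had Rps4l (-0.53, at 305 kb) and Ipo8 (-0.001, at 112 kb) as its closest detected genes. Gm12253 lay between Sh3bp5l (-0.06) and the olfactory receptor gene Olfr30, which was well above background in Drp1LiKO cells only. Farther from Gm12253, the interferon-inducible GTPase gene Igtp had 1.31, and a probe for an unnamed interval had a ratio of at least 1.53. 5033418A18Rik lay 30.6 kb from Elf4, a transcription factor gene with -0.78, and 416 kb from Apln, which encodes the peptide apelin and had 1.72.

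Around 2610035D17Rik the array holds probes for the same stretch of chromosome 11 on both strands. A probe 5.8 kb away on its own strand read 205 in control and 141 in Drp1LiKO cells, a log2 ratio of -0.72. A probe 12.1 kb away on the other strand read 131 and 162, or 0.12. Sox9, the gene of a transcription factor of cartilage and bile duct cells, lay 258 kb away with 0.58. The 20.4-fold difference of 2610035D17Rik was thus seen on its own probe and not on the interval probes beside it.

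**Figure D4:**
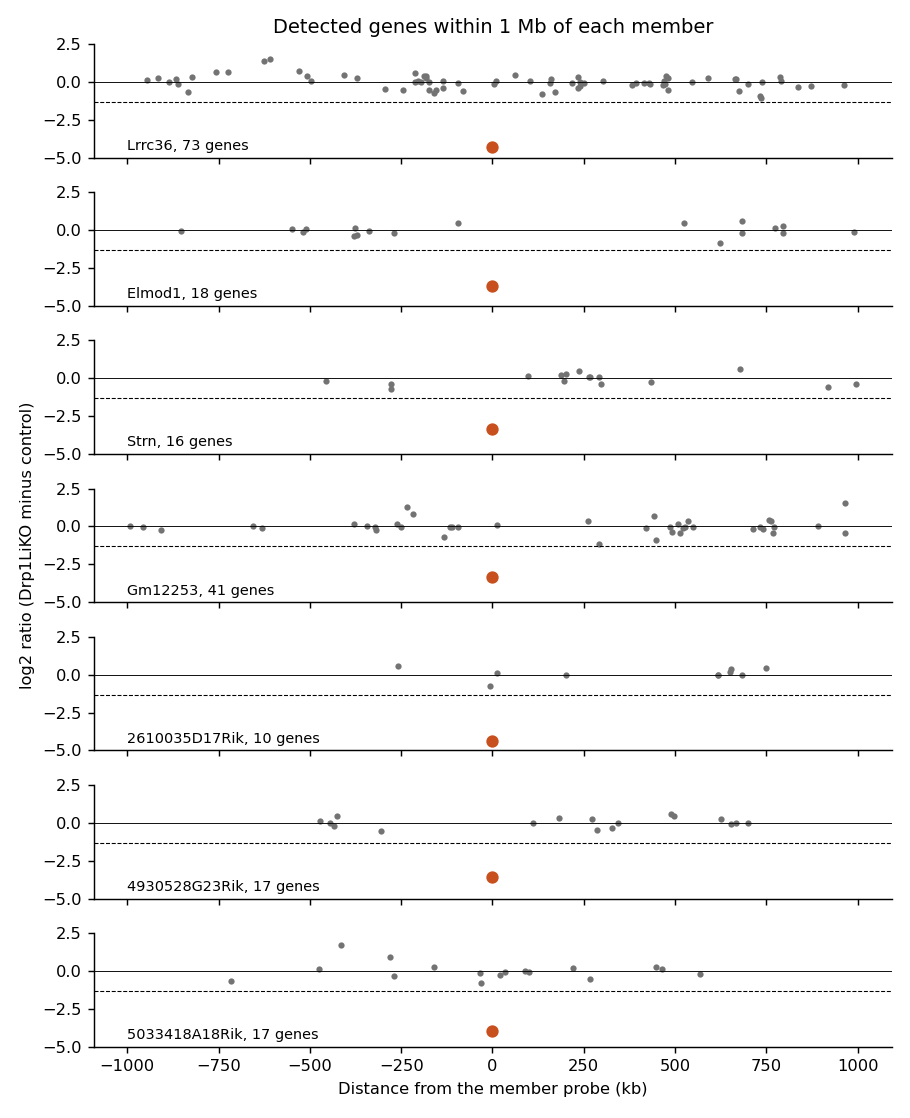
Log2 ratio (y axis, Drp1LiKO minus control) of each detected gene within 1 Mb of the 7 genes (gray) against its distance in kb from the gene's brightest probe (x axis), 1 panel per gene, with the gene itself in orange at 0. The dashed line is the threshold at -1.31; of 192 genes nearby, 0 lie below it.

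Relatives and partners of the coding genes had log2 ratios close to 0. The striatin paralog Strn3 read 3278 in control and 3538 in Drp1LiKO cells (log2 ratio -0.07; -0.48 on a dimmer probe), and Strn4 read 3968 and 4163 (-0.11; 0.18 and 0.29 on dimmer probes). Of 15 detected genes of the striatin complex besides Strn, which include PP2A subunits, Mob4, Slmap and the kinases Stk24 and Stk25, 0 passed the threshold in either direction. Their median was -0.10, from -0.56 (Ppp2r1b, a PP2A scaffold subunit) to 0.29 (Cttnbp2nl, a striatin partner). The low Strn value was thus not shared by the other subunits measured.

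Elmod2 and Elmod3, the paralogs of Elmod1, had log2 ratios of -0.07 (28.0 and 30.1) and 0.10 (1499 and 1825). Among all 16 detected ELMO domain genes and ARF-family GTPase genes besides Elmod1, 0 passed the threshold, with a median of -0.07 and a lowest value of -0.63 for Arf4, which acts in transport from the Golgi. The highest, Elmo1, an activator of phagocytosis, was well above background in Drp1LiKO cells only and at least 1.59-fold higher. Of 44 detected genes named Lrrc and a number besides Lrrc36, 0 were lower and 3 higher past the threshold. These were Lrrc32 (2.70) and, as bounds, Lrrc72 (at least 3.06) and Lrrc9 (at least 3.14). Genes for mitochondrial fission and fusion gave 0 of 10 past the threshold, with Dnm1l at the lowest value.

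For the noncoding genes among the 7, the array holds many others of their kind. Of 952 detected RefSeq long noncoding RNAs besides the 2 named here, 65 were lower (6.83%), against 337 of 13491 coding genes besides the 4 (2.5%). Of 1132 other genes with names ending in Rik, 54 were lower (4.77%), and of 962 other genes named Gm and a number, 58 (6.03%). The median log2 ratio was -0.048 for the long noncoding RNAs and -0.04 for the coding genes, near the -0.047 of all genes. The ratio was a bound, with 1 array not well above background, in 255 of the 952 long noncoding RNAs and in 1147 of the 13491 coding genes. The part of low signals in these shares was not tested.

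Markers of other cells moved with the genotypes too. The summed signal of 17 detected hepatocyte markers was 847191 in control and 933097 in Drp1LiKO cells, most of it from Serpina1a, Alb (219613 and 266703) and Hpx. Of them Ahsg (1.83), Cyp3a11 (2.03) and Arg1 (1.63) were higher past the threshold, while Pck1 was not well above background in control cells, nor G6pc in Drp1LiKO cells. Of 17 detected Kupffer cell and macrophage markers 12 were higher past the threshold (summed 16082 and 34198), as were 8 of 13 endothelial markers (4767 and 10387) and 5 of 11 stellate cell markers (84554 and 98701). A few genes make up most of these sums too. They are Cd14 (log2 ratio 0.21), Itgam (-0.28) and Cd68 (1.85) for macrophages and Egfl7 (0.70) for endothelium. For stellate cells they are Vim (-0.13) and Acta2 (0.02). Clec4f, Vsig4, Fcgr1 and Cybb were not well above background in control cells, nor were Lyve1, Tek and Tie1. Neither were the stellate cell markers Des, Pdgfrb, Col3a1 and Rgs5 and the cholangiocyte marker Krt7. The ratios of all these genes, some of them past the threshold, are therefore bounds. The 5 detected cholangiocyte markers had 0 past the threshold. Of 18 mitotic genes 16 were lower past it, with a median log2 ratio of -2.03 and a lowest value of -2.32 for Ccna2. The part of the cell mixture and of cell division in the low signals of the 7 genes was not tested.

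How low the 7 genes came out depended on the background correction. With the scanner's own correction Lrrc36 was 20.1-fold lower, while without background subtraction it was 5.74-fold lower. Strn was 10.0-fold and 3.88-fold lower, and Gm12253 10.3-fold and 3.78-fold. Elmod1, the brightest, moved less, from 12.9-fold to 6.86-fold. The order of the genes moved with it, since Elmod1 then had the lowest log2 ratio (-2.78) and Lrrc36 the next (-2.52). In the table of normalized intensities that the authors deposited, Lrrc36 was at 410 and 9.04, a log2 ratio of -5.50, and Elmod1 at 773 and 84.4, a log2 ratio of -3.20. All 7 genes kept a ratio past the threshold in each of these.

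**Figure D5:**
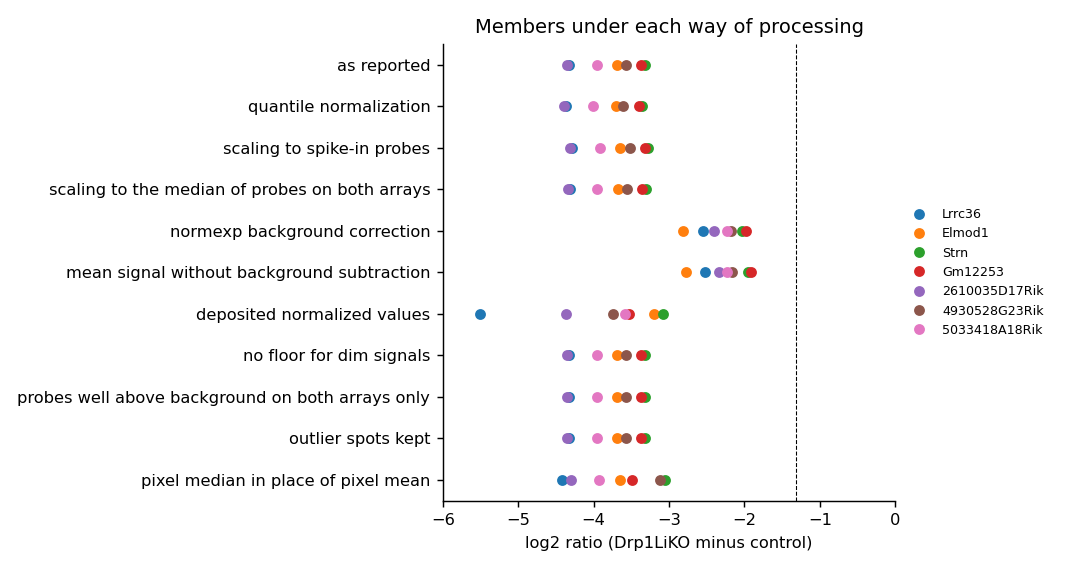
Log2 ratio (x axis, Drp1LiKO minus control) of the brightest probe of each of the 7 genes (colors) under each way of processing (y axis). The dashed line is the threshold of the values as reported, -1.31; values range from -5.50 for Lrrc36 in the deposited table to -1.92 for Gm12253 without background subtraction.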

How the data were processed

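RNA was extracted with TRIzol, labeled with Cy3 and hybridized to Agilent mouse arrays of 60-base probes, read in 1 color. Both arrays lay on 1 slide and shared 1 scan. The authors deposited the Feature Extraction output of each array with spot intensities, pixel SD, local background and a processed signal (version 9.5.1.1 per the processing notes, 10.7.1.1 per the file headers). They also deposited a table of normalized intensities by a method not given in the sources used here, which served as an alternative. Probe positions are in mm9, the build of the array files.

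From the processed signals, control spots and outlier spots (71 in control, 63 in Drp1LiKO) were excluded. The remaining spots of a probe were averaged on the log2 scale, relative to the array's 75th percentile. Of 56600 probes, 30275 were kept as well above background in most spots on at least 1 array (27256 in control, 29462 in Drp1LiKO). Dimmer signals were raised to the lowest signal well above background, which makes such ratios bounds. The Z score used the mean and SD (0.652) over all kept probes, and a gene was its brightest probe. The number of arrays, 1 per genotype, limits the precision, and no p-value was computed.

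The genes, lists and comparisons were chosen with earlier results of these data known. Named genes were the 7 genes, Dnm1l, paralogs, the nearest detected genes on each side, genes past the threshold within 1 Mb or in the related lists, the nearest genes in level and those next in order. The pixel spread was examined, the median pixel added, and the lowest and highest genes of a list, the genes not well above background, the hepatocyte markers, Ccna2, Sox9 and the interval probes near 2610035D17Rik named, after values were seen. The genes that make up most of each marker sum were also named then. The Z score step was tested on simulated data for control against Drp1LiKO, in which 200 of 200 changed genes among 18356 were called, along with 8 unchanged ones. The simulated Drp1LiKO array was a copy of the control array with little added noise and large changes put into brighter genes. The simulation therefore checks the computation only and gives no error rate for real arrays. Python 3.11.15, numpy 2.4.6, pandas 2.3.3, R 4.3.3 and limma 3.58.1 (normexp, offset 50) were used. Alternatives were other scalings, background corrections, filters and probe summaries.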

Additional observations from a re-analysis of the deposited data

How the results depend on the processing

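All 7 genes stayed past the threshold in each of 12 alternatives for which they were counted. Their median log2 ratio, -3.69 as reported, was -2.238 with normexp background correction and -2.229 with the mean signal and no background subtraction, settings in which the background stays in dim Drp1LiKO signals or an offset is added to them. Of 77 ratios of single genes under the alternatives, 60 stayed within the 95% interval that the spot errors give, 17 moved beyond it and 0 changed sign, and they ranged from -5.503 to -1.919. The 60 do not measure robustness, since several alternatives could not move these ratios. Dropping the floor for dim signals, keeping outlier spots or requiring detection on both arrays left all 7 as they were. The median of a gene's probes could change only Elmod1. Both background alternatives moved all 7 genes beyond the interval. The Elmod1 ratio was -2.83 as the median of its detected probes. Genes lower past the threshold numbered 566, and 1443 where the Z score used the median and median absolute deviation. No count of a gene list past the threshold moved by over 1.5 times, in either direction, with quantile normalization or with the median of a gene's probes. Genes near the 7 that were lower numbered 0 within 250 kb too, and those that were higher 1 in place of 5. The median pixel and the alternatives for the RefSeq lists were chosen after seeing the data. The Drp1LiKO signals of the 7 genes, close to background, limit how far their folds can be stated. No paired analysis was possible because each genotype had 1 array. Leaving out a replicate could not be tried for the same reason.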
